A study of Heterocephalus glaber with 3 samples.

Results

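SPRED1, ETV4, ETV5, EPHA2, FOSL1 and IER3 are known as transcriptional outputs of the MAPK pathway, which ALK activates. The 6 genes were taken by symbol, with case ignored, from a feature list of 23189 entries, 11611 of them without a symbol. Each of the 6 symbols matched 1 feature, so the set holds 6 of 23189 features. The identifiers are ENSHGLG00000049493 for SPRED1, ENSHGLG00000011286 for ETV4, ENSHGLG00000016507 for ETV5, ENSHGLG00000012989 for EPHA2, ENSHGLG00000040823 for FOSL1 and ENSHGLG00000017142 for IER3. Over all kept cells they had 1323 UMIs (unique molecular identifiers, 1 per captured transcript) for SPRED1, 989 for ETV4, 330 for ETV5, 3193 for EPHA2, 1587 for FOSL1 and 330691 for IER3.

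Lung tumours came from 3 naked mole-rats (Heterocephalus glaber), with 1 single-cell library per animal and all 3 in the same group. Every animal had been infected with an adenovirus carrying CRISPR reagents, with loss of Rb and an Eml4-Alk inversion among the edits, and tumours were taken 15 weeks later and separated from normal lung by hand. The labels name no uninfected animal, and give no strain and no age. Comparisons were therefore between cell classes of the same animals, and nothing in the labels says which cells carry an edit. Counts come from the 3' ends of transcripts, so reads of the fusion and of the native Alk transcript cannot be told apart.

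ALK is a receptor tyrosine kinase, and the fusion with EML4 keeps its kinase domain active without ligand. Active receptor tyrosine kinases signal through RAS, RAF, MEK and ERK, the MAPK cascade, to ETS and AP-1 transcription factors, which switch on growth genes together with inhibitors that feed back on the cascade. In lung cancers driven by kinase fusions, transcripts of such output genes are used as a readout of how active the cascade is.

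The 3 matrices held 9500 to 10000 barcodes and 76093932 to 91949365 UMIs each. After filters, 24580 of 29500 barcodes were kept, and they formed 28 clusters. Markers named 25 of the clusters, all names being "-like" names rebuilt from the data, and 3 stayed unnamed. The libraries shared 24, 21 and 31 barcodes. Of the clusters, 3 small ones came mostly from replicate 2: cluster 21, an unnamed cluster led by SERPINE2, SPINK5 and KRT14 (198 of 201 cells), cluster 26, bone matrix-like (115 of 116 cells), and cluster 20, osteoclast-like (192 of 202 cells). The members and the genes of the pathway lists were kept out of the clustering, but the classes come from the same cells. So p-values between classes are not calibrated, and they weigh each class difference against its variation over these 3 animals only.

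As a check of the label, the Alk transcript was read over the 28 clusters. It stood at or above 5 CPM (a gene's UMIs as a share of all UMIs of the summed cells, scaled to counts per 1e6) in 4 clusters, called Alk-high. These were cluster 3, fibroblast-like, with 1735 cells and 16.7 CPM, cluster 17, epithelial-like, with 266 cells and 15.1 CPM, cluster 21 with 63.8 CPM and cluster 26 with 57.2 CPM. Of the 6 genes, ETV4 had the level pattern most like that of Alk, with Pearson's r 0.79 and Spearman's rho 0.88 over the 28 clusters on the log2(CPM + 1) scale. Clusters 21 and 26, the highest in Alk, had ETV4 at 3.80 and 8.07 CPM, against 20.1 and 19.2 CPM in clusters 3 and 17. With the 3 clusters that came mostly from 1 animal left out, clusters 21 and 26 among them, r was 0.92 for ETV4. Within replicates 1, 2 and 3 it was 0.64, 0.76 and 0.81. For SPRED1 r was 0.56 and rho 0.44 (r 0.35 without those clusters), for FOSL1 0.46 and 0.20 (r 0.25) and for ETV5 0.35 and 0.34 (r 0.20). For EPHA2 they were 0.09 and 0.13, and for IER3 0.05 and -0.03. These are descriptions over clusters that share 3 libraries and differ in depth. ETV4 was closest to Alk by either measure, EPHA2 and IER3 were the farthest, and the order of FOSL1 and ETV5 depended on the measure. SPRED1 came second over the pooled animals and within replicates 2 and 3 (r 0.47 and 0.48). Within replicate 1 its r of 0.21 lay below FOSL1 (0.41) and ETV5 (0.37).

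**Figure D1:**
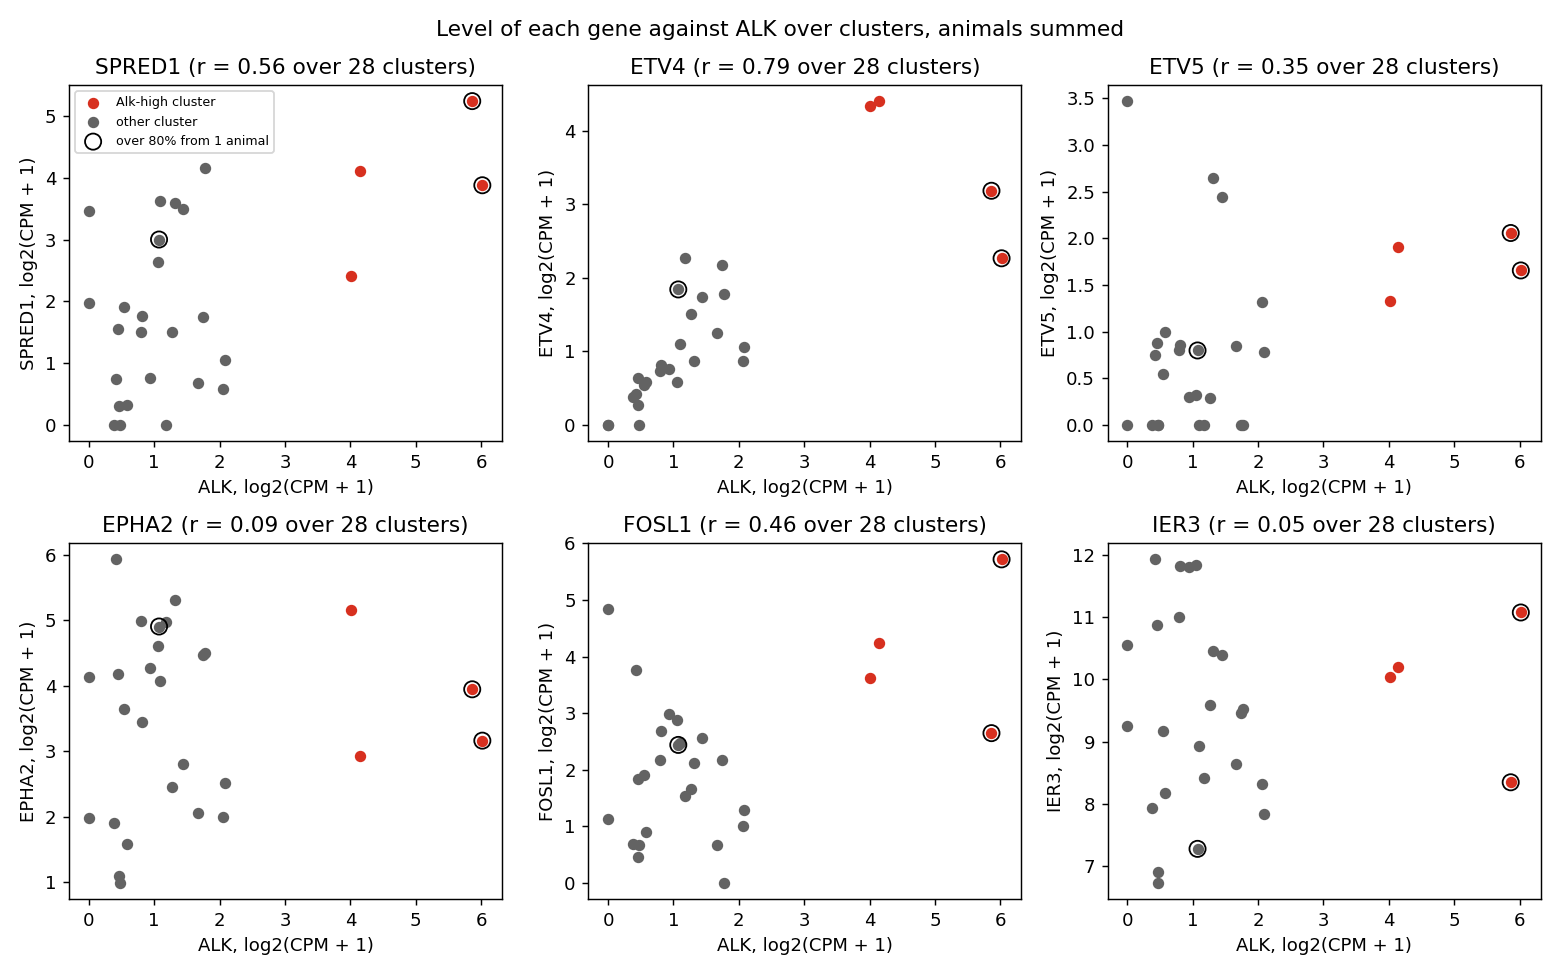
Level of each of the 6 genes (vertical axis, log2 of CPM plus 1) against the Alk transcript (horizontal axis, same scale), with 1 point per cluster (28 clusters, animals pooled) and Pearson's r in each title. Red points are the 4 Alk-high clusters and rings mark clusters of which over 80% of cells came from 1 animal. The points rise together for ETV4 (r 0.79), but clusters 21 and 26, highest in Alk, lie below clusters 3 and 17 in ETV4. IER3 (r 0.05) and EPHA2 (r 0.09) are as high in clusters with little Alk.

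SPRED1 is an inhibitor that the cascade itself induces: it recruits neurofibromin to the membrane and damps RAS. Its transcript was highest in the stromal classes and close to absent from lymphocytes. The 9 classes ordered here and below had at least 10 cells in every animal, and the unnamed clusters are not among them. Levels in endothelial-like cells were 24.6, 7.59 and 12.8 CPM in replicates 1, 2 and 3 (15.0 ± 8.74, SD, n = 3), on 17 UMIs in all. In fibroblast or mural-like cells they were 17.3, 10.8 and 16.2 CPM (14.8 ± 3.5), and these 2 classes overlapped. Fibroblast or mural-like cells lay above every value of the next class, epithelial-like cells (6.30 ± 2.76), which overlapped monocyte or macrophage-like cells (4.54 ± 1.28). The remaining 5 classes ran without a gap from dendritic-like (1.66 ± 0.65) over neutrophil-like (1.08 ± 1.4), B-like (0.755 ± 0.67) and T or NK-like (0.354 ± 0.19) to plasma-like cells (0.303 ± 0.33). Among clusters, the bone matrix-like cells of replicate 2 stood highest at 36.9 CPM (95% Poisson interval 30.1 to 44.6), and macrophage-like cluster 11, led by C1QB and CX3CR1, had 11.1 CPM against 4.54 ± 1.28 in its class.

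ETV4 is an ETS transcription factor that ERK signalling induces and activates. Its transcript marked 2 classes, with a gap on either side of each. It stood at 17.6, 15.0 and 17.3 CPM in fibroblast or mural-like cells (16.6 ± 1.46) and at 9.01, 10.4 and 14.5 CPM in epithelial-like cells (11.3 ± 2.84). All other classes were far lower: endothelial-like cells had 2.09 ± 1.8 CPM on 2 UMIs, dendritic-like cells 1.99 ± 0.70, and B-like, T or NK-like and monocyte or macrophage-like cells 0.755 ± 0.67, 0.692 ± 0.25 and 0.603 ± 0.34. Neutrophil-like cells had 1 UMI in all, and plasma-like cells 0.164 ± 0.079 CPM. Within both classes the transcript sat in the Alk-high cluster. Alk-high fibroblast-like cluster 3 had 20.1 CPM (18.7 to 21.6) and Alk-high epithelial-like cluster 17 had 19.2 CPM (15.1 to 24.0), while alveolar type 2-like cluster 19 had no UMI, which allows up to 1.78 CPM. The other Alk-high clusters were lower, at 8.07 CPM in cluster 26 and 3.80 CPM in cluster 21, although these had the highest Alk levels.

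ETV5, the close relative of ETV4, is known in mouse lung for maintaining the alveolar type 2 cell. It was sparse throughout, with 330 UMIs in all. Means were 3.01 ± 0.617 CPM in fibroblast or mural-like cells, 3.01 ± 1.44 in epithelial-like cells and 1.64 ± 0.253 in monocyte or macrophage-like cells, and these 3 classes overlapped in turn. T or NK-like cells had 0.946 ± 0.12 CPM, and neutrophil-like, B-like and dendritic-like cells had 2 UMIs each. Endothelial-like and plasma-like cells had none, which allows up to 2.31 and 0.0879 CPM. The highest cluster was alveolar type 2-like cluster 19 at 10.1 CPM (5.87 to 16.1), on 3, 2 and 12 UMIs by animal, so most of that value came from replicate 3. Macrophage-like cluster 11 followed at 5.28 CPM (4.12 to 6.66), the animals lying close together at 5.96, 4.87 and 5.85 CPM. ETV5 and ETV4 both had their highest class means in fibroblast or mural-like and then epithelial-like cells, and their r over clusters was 0.24. The cluster where ETV5 was highest had no ETV4 UMI, which allows up to 1.78 CPM.

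EPHA2 is an ephrin receptor whose gene is induced by RAS and ERK. Unlike the genes above, it had its highest class mean in neutrophil-like cells, followed by epithelial-like and monocyte or macrophage-like cells. Neutrophil-like cells had 39.5, 88.3 and 16.0 CPM (48.0 ± 36.8), on 64, 101 and 14 UMIs. Epithelial-like cells had 34.5, 39.8 and 20.8 CPM (31.7 ± 9.78), monocyte or macrophage-like cells 21.5, 39.1 and 24.4 CPM (28.3 ± 9.45) and endothelial-like cells 18.6 ± 3.22 CPM. These 4 classes overlapped each with the next, and all 4 lay above dendritic-like cells (8.30 ± 0.41). Fibroblast or mural-like cells had 6.81 ± 2.92 CPM, B-like cells 3.23 ± 3.0, T or NK-like cells 2.60 ± 0.40 and plasma-like cells 1.28 ± 0.59. Replicate 2 was the highest animal in all 3 leading classes. By cluster, neutrophil-like cluster 7 led at 60.0 CPM (51.5 to 69.5), followed by macrophage-like cluster 11 at 38.6 and epithelial-like cluster 17 at 34.5 CPM.

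FOSL1 encodes FRA1, an AP-1 subunit that ERK stabilises. Its transcript was high in neutrophil-like cells, at 11.1, 22.7 and 13.8 CPM (15.9 ± 6.08), and in fibroblast or mural-like cells, at 17.4, 15.9 and 12.4 CPM (15.2 ± 2.57), and the 2 classes overlapped. Epithelial-like cells came next at 7.20 ± 1.57 CPM, apart from the classes on either side. Monocyte or macrophage-like cells had 4.08 ± 1.57 CPM, endothelial-like cells 3.14 ± 3.2 on 4 UMIs, dendritic-like cells 2.14 ± 0.88, B-like cells 0.861 ± 1.5, T or NK-like cells 0.723 ± 0.30 and plasma-like cells 0.438 ± 0.24. The highest cluster was KRT14-positive cluster 21 of replicate 2, at 51.6 CPM (46.0 to 57.6). Neutrophil-like cluster 25, led by LTF, followed at 27.8 CPM (16.7 to 43.4), on 5, 7 and 7 UMIs by animal.

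IER3 is an immediate early gene whose product prolongs ERK activity and protects from cell death. It was abundant in every class, with a steep order: neutrophil-like cells at 3151, 3750 and 3612 CPM (3504 ± 314), then monocyte or macrophage-like cells at 2628, 2095 and 2527 CPM (2417 ± 283). Both stood apart from fibroblast or mural-like (1163 ± 368), epithelial-like (826 ± 192), dendritic-like (823 ± 614) and endothelial-like cells (594 ± 102), which overlapped in turn. T or NK-like cells (328 ± 56.1), B-like cells (219.8 ± 17.1) and plasma-like cells (105 ± 18.1) each formed a step of their own. Unnamed cluster 2, led by RETN, IL23A and MMP8 and outside this order, was as high as neutrophil-like cells, at 3606 CPM on 71846 UMIs. It counted among the rest in the class tests below. Of the 8 pairs of neighbours in the order of the 9 classes, 3 overlapped for IER3, against 6 for SPRED1, ETV4, EPHA2 and FOSL1 and 7 for ETV5.

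**Figure D2:**
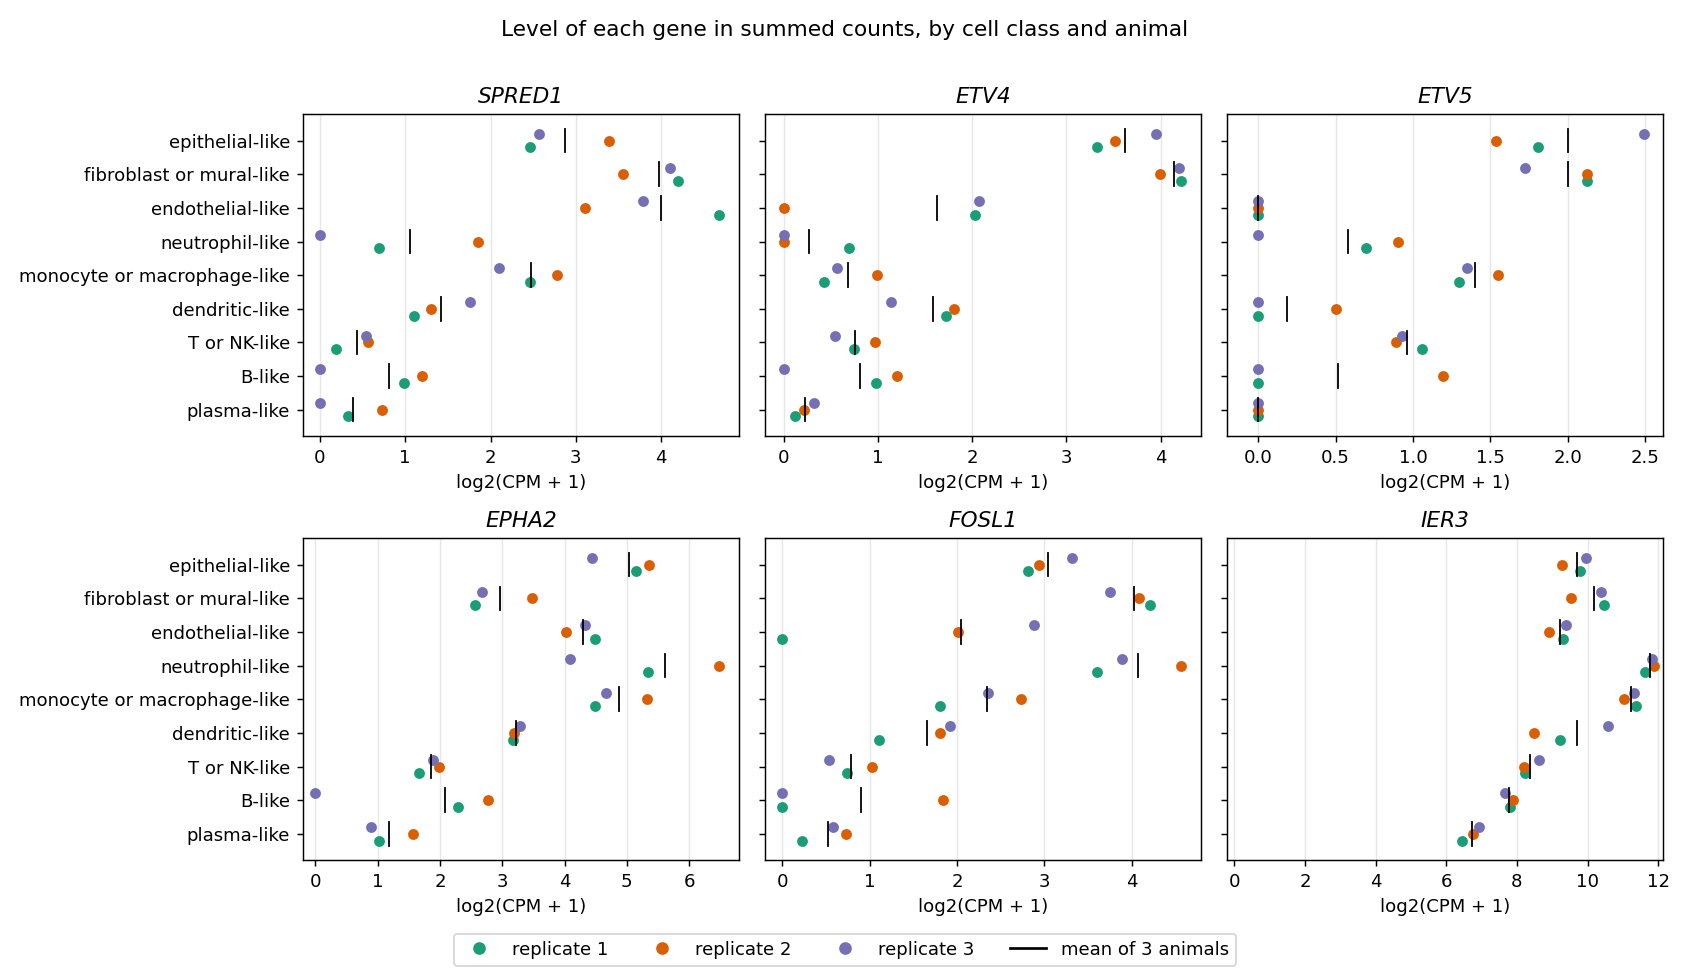
Level of each of the 6 genes (horizontal axis, log2 of CPM plus 1) in 9 cell classes (rows), with 1 point per animal and a black line at the mean of the 3 animals. ETV4 is high in fibroblast or mural-like cells (mean 16.6 CPM) and epithelial-like cells (11.3 CPM) alone, while EPHA2 and IER3 are highest in neutrophil-like cells (48.0 and 3504 CPM).

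**Figure D3:**
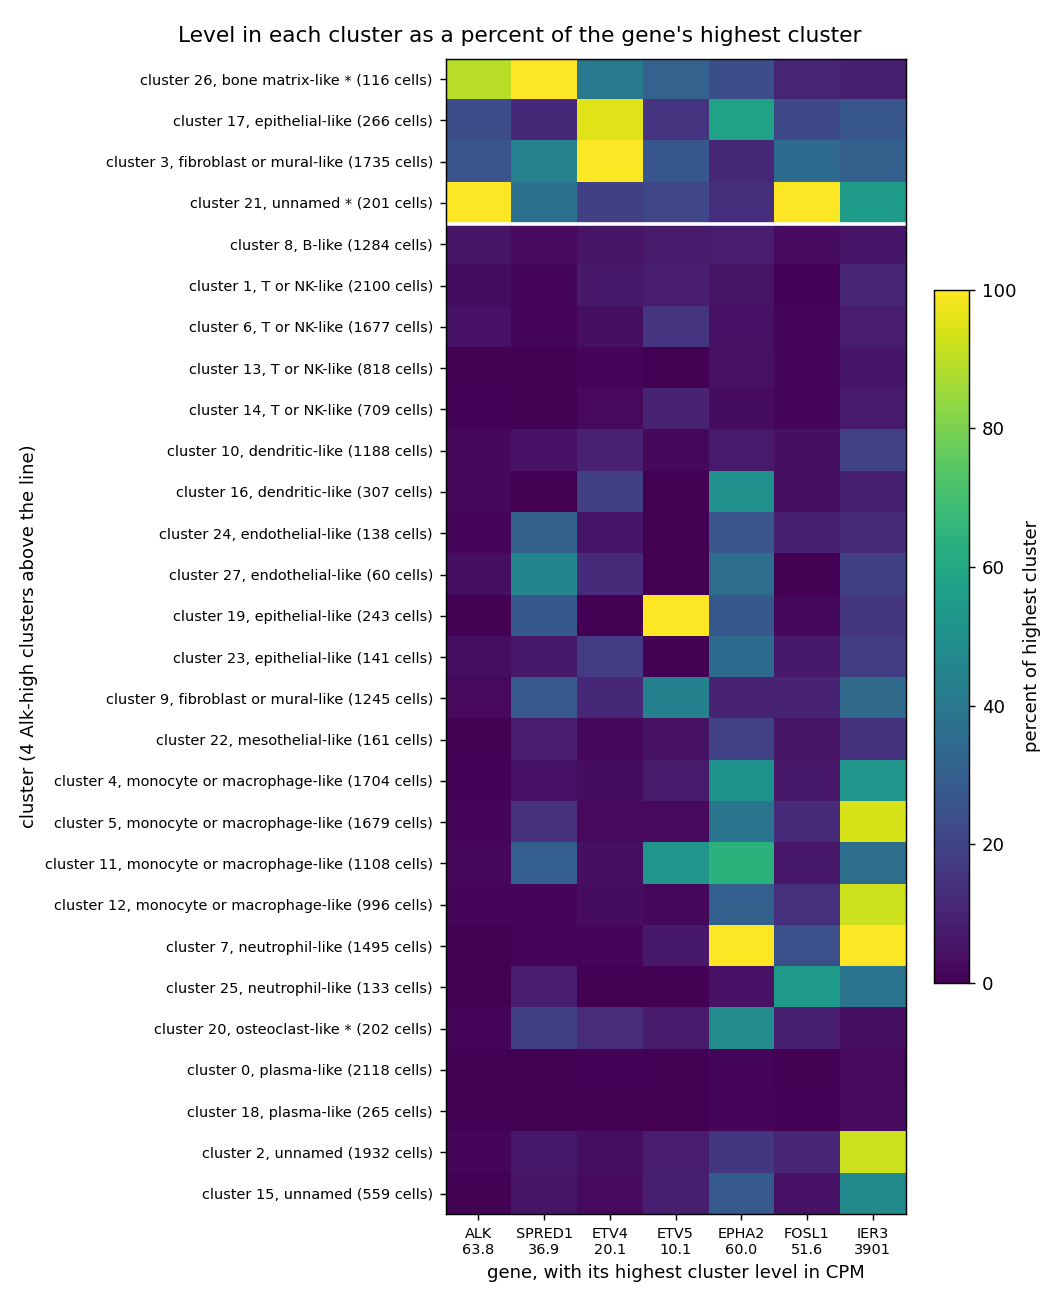
Level of Alk and of the 6 genes in each of 28 clusters (rows, number of cells in brackets), as a percent of the gene's highest cluster (colour), with that highest level in CPM under each gene name. The 4 Alk-high clusters are above the white line and an asterisk marks clusters of which over 80% of cells came from 1 animal. ETV4 peaks in clusters 3 (20.1 CPM) and 17 (19.2 CPM), FOSL1 in cluster 21 (51.6 CPM), SPRED1 in cluster 26 (36.9 CPM), ETV5 in cluster 19 (10.1 CPM), and EPHA2 and IER3 in cluster 7 (60.0 and 3901 CPM).

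Where the Alk transcript was high, ETV4, FOSL1 and SPRED1 were higher in every animal, and EPHA2 and IER3 were lower. The comparison summed the counts of the 4 Alk-high clusters and of all other cells in each animal, and tested them with edgeR's quasi-likelihood test, the animal as block and Benjamini-Hochberg adjustment over all genes. The choice of clusters used Alk itself, which is therefore no result here. Of all genes tested, 49.7% were called in either direction at an adjusted p of 0.05, and 5 of the 6 members were. In CPM, 51.5% of the genes did not overlap between the 2 sides over the animals, and 4 of the members did not. ETV4 had 19.4, 12.8 and 20.7 CPM in the Alk-high cells of replicates 1, 2 and 3, against 0.671, 1.17 and 0.603 CPM in the other cells. That is a log2 fold change of 4.11 ± 0.32 (SE; adjusted p = 0.00025), the steepest of the set. FOSL1 had 18.8, 27.9 and 13.9 CPM in Alk-high cells, against 2.15, 4.33 and 2.91 CPM in the others (2.37 ± 0.23, adjusted p = 0.00056). SPRED1 had 16.7, 16.2 and 15.5 CPM in Alk-high cells, against 2.76, 4.11 and 2.06 CPM in the others (2.17 ± 0.18, adjusted p = 0.00034). For these 3 genes the lowest Alk-high value lay well above the highest of the other cells. In replicate 2, 306 of the 499 Alk-high FOSL1 UMIs came from cluster 21. Of the 290 SPRED1 UMIs, 81 came from cluster 21 and 105 from cluster 26. The replicate 2 values thus rest largely on clusters nearly absent from the other animals. The ETV4 and FOSL1 calls held in 15 of 15 alternatives and the SPRED1 call in 14. Leaving out the clusters mostly of 1 animal was among these.

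EPHA2 ran the other way, with 7.60, 11.3 and 9.48 CPM in Alk-high cells, against 10.8, 23.4 and 10.8 CPM in the others (-0.91 ± 0.16, adjusted p = 0.0054), the 2 ranges overlapping. IER3 had 1379, 1071 and 1279 CPM in Alk-high cells, against 1436, 1179 and 1864 CPM in the others (-0.57 ± 0.17, adjusted p = 0.035), also overlapping. This IER3 call held in 9 of 15 alternatives. It was lost with library totals in place of edgeR's TMM scaling (-0.25, adjusted p = 0.17), without the block (adjusted p = 0.15), without replicate 1 (0.076), without replicate 3 (0.12), with cells matched on UMIs (-0.26, adjusted p = 0.23) and without cluster 3 (-0.59, adjusted p = 0.24). ETV5 had 3.19, 2.51 and 1.86 CPM in Alk-high cells, against 0.966, 1.49 and 0.934 CPM in the others, which missed the threshold (0.84 ± 0.30, adjusted p = 0.059) and passed it with library totals (1.16, adjusted p = 0.018). With fibroblast-like cluster 3 left out of the Alk-high cells, ETV4 (3.54, adjusted p = 0.010) and FOSL1 (2.27, adjusted p = 0.011) stayed called, SPRED1 did not (1.15, adjusted p = 0.15) and EPHA2 changed sign (0.41, adjusted p = 0.65). The summed level of the 5 basal keratinocyte markers was 761, 1503 and 1459 CPM in Alk-high cells, against 26.4, 68.6 and 41.6 CPM in the others, and all 5 were higher in every animal. Their part in the result was not tested.

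Among fibroblast-like cells, ETV4 and FOSL1 separated the Alk-high cells from the others, and the remaining 4 members did not pass the test. Alk-high fibroblast-like cells (cluster 3, led by MMP3, IGF2, SFRP4 and COL1A1) were set against the other fibroblast-like cells (cluster 9, led by CCL19, MGP and MFAP4). The name rests on markers and does not show a shared lineage. Cluster 3 also held more basal and epithelial marker transcripts, given below, so the clusters differ in more than Alk. Of all genes, 44.2% were called, and 2 of the 6 members. ETV4 had 20.02, 19.5 and 20.8 CPM in Alk-high fibroblast-like cells, against 2.00, 1.67 and 3.40 CPM in the others. The log2 fold change was 2.97 ± 0.26 (edgeR, adjusted p = 3.5e-05). FOSL1 had 19.3, 19.6 and 14.4 CPM in Alk-high fibroblast-like cells, against 5.19, 4.996 and 4.54 CPM in the others (1.73 ± 0.21, adjusted p = 0.00021). Both groups stood apart without overlap for these 2 genes and for ETV5, as for 44.8% of all genes.

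SPRED1 had 17.8, 11.4 and 18.3 CPM in Alk-high fibroblast-like cells, against 13.97, 8.99 and 8.32 CPM in the others, higher in 3 of 3 animals with overlapping ranges (0.47 ± 0.21, adjusted p = 0.096). The difference passed the threshold in 2 of 12 alternatives, with no filter on low counts (adjusted p = 0.047) and with library totals (0.59, adjusted p = 0.048). ETV5 had 3.34, 2.59 and 1.92 CPM in Alk-high fibroblast-like cells, against 3.59, 5.66 and 3.78 CPM in the others, lower in 3 of 3 animals (-0.86 ± 0.36, adjusted p = 0.084). The 2 relatives ETV4 and ETV5 thus had fitted differences of opposite sign, of which the ETV5 one missed the threshold. EPHA2 differed by 0.10 ± 0.26 (adjusted p = 0.78). IER3 had 1406, 580.0 and 1325 CPM in Alk-high fibroblast-like cells, against 1510, 1221 and 1330.3 CPM in the others (-0.52 ± 0.19, adjusted p = 0.057). It was lower in every animal, by a wide margin in replicate 2 alone, and without replicate 2 the difference was -0.18 (adjusted p = 0.30). In 6 of 12 alternatives it passed the threshold: without replicate 1 (0.042), without replicate 3 (0.0082), with no filter on low counts (0.021), with matched cells (0.018), with at least 2000 UMIs per cell (0.044) and with a mitochondrial limit of 10% (0.026).

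Alk-high fibroblast-like cells were the deeper of the 2 groups, their cells holding 18049 UMIs at the median, against 5394 in the others. With cells matched on UMIs within each animal, ETV4 (2.84) and FOSL1 (1.12, adjusted p = 0.013) stayed called, and the SPRED1 difference was -0.03 (adjusted p = 0.95). The summed level of 12 genes known to respond to tissue dissociation was 4118, 3817 and 4004 CPM in Alk-high fibroblast-like cells, against 7618, 6733 and 5678 CPM in the others, 11 of the 12 being lower in every animal. The 5 basal markers summed to 439.9, 348 and 799.5 CPM in Alk-high fibroblast-like cells, against 34.3, 92.3 and 48.8 CPM in the others, and the 5 epithelial markers to 65.9, 84.0 and 71.8 CPM, against 6.39, 8.99 and 10.6 CPM. The fibroblast markers summed to 8478.5, 4290.2 and 6831 CPM in Alk-high fibroblast-like cells, against 8408, 5526 and 7479.9 CPM in the others. The part of dissociation and of keratin transcripts in the result was not tested.

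**Figure D4:**
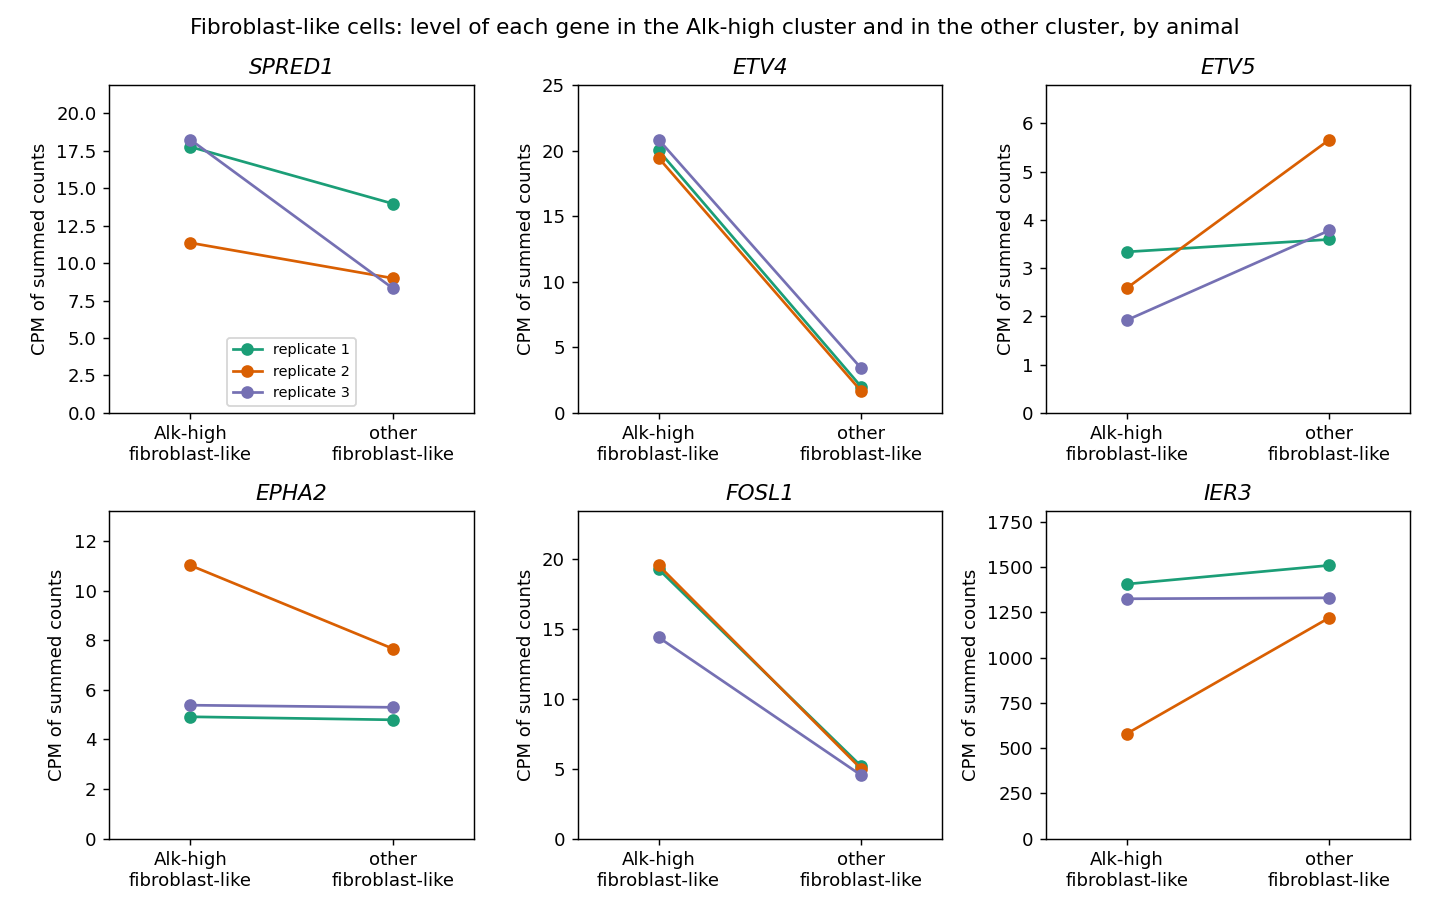
Level of each of the 6 genes (vertical axis, CPM of summed counts) in Alk-high fibroblast-like cells (left) and other fibroblast-like cells (right), with 1 line per animal. ETV4 is near 20 CPM in all 3 animals on the left and at 3.40 CPM or less on the right, FOSL1 is at 14.4 CPM or more on the left and 5.19 CPM or less on the right, and the lines of SPRED1, ETV5, EPHA2 and IER3 are flatter or differ between animals.

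Among epithelial-like cells ETV4 was higher in cluster 17 as well, on fewer counts. The general epithelial-like cells (cluster 17, led by SCGB3A2, KRT8 and EPCAM) were set against alveolar type 2-like and ciliated-like cells, a choice that did not use Alk. Of all genes, 23.6% were called, and all 4 members that passed the filter on low counts: this count is set partly by that filter. ETV4 and FOSL1 passed it only on their counts in general epithelial-like cells. Their tests could therefore only come out higher on that side, and their p-values add no support to the UMI counts. ETV4 had 13.2, 33.8 and 20.5 CPM in general epithelial-like cells, against 1.4, 1.32 and 0.937 CPM in the others, on 17, 10 and 49 UMIs against 1 UMI in each animal. The pooled ratio was 16.2, with a 95% counting interval of 5.35 to 80.4, and the fitted log2 fold change was 4.06 ± 0.56 (edgeR, adjusted p = 0.00068). FOSL1 had 9.34, 13.5 and 12.2 CPM in general epithelial-like cells, against 0, 3.95 and 1.87 CPM in the others (2.58 ± 0.68, adjusted p = 0.021). These levels rest on 12, 4 and 29 UMIs against 0, 3 and 2. EPHA2 had 42.8, 54.1 and 27.7 CPM in general epithelial-like cells, against 19.6, 34.2 and 5.62 CPM in the others, overlapping but higher in 3 of 3 animals (1.29 ± 0.32, adjusted p = 0.016). IER3 had 969, 1042 and 1101 CPM in general epithelial-like cells, against 713, 447 and 733 CPM in the others (0.74 ± 0.23, adjusted p = 0.046). Groups did not overlap for ETV4, FOSL1 and IER3, as for 33.5% of all genes tested.

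Of these 4, EPHA2 and IER3 were tested in 11 alternatives, ETV4 in 10 and FOSL1 in 8. ETV4 kept its call in all 10. FOSL1 lost it with DESeq2 (adjusted p = 0.091) and without replicate 1 (0.078), EPHA2 with DESeq2 (0.094), without the block (0.16), without replicate 1 (0.076) and without replicate 3 (0.14), and IER3 with DESeq2 (0.093), without the block (0.15), without replicate 1 (0.11), without replicate 2 (0.30) and with a mitochondrial limit of 10% (0.14). SPRED1, with 5, 3 and 9 UMIs in general epithelial-like cells against 4, 7 and 8 in the others, and ETV5, with 2, 0 and 4 UMIs against 3, 2 and 12, did not pass the filter and were not tested. On these few counts ETV5 was lower in 3 of 3 animals without overlap, at 1.56, 0 and 1.68 CPM in general epithelial-like cells, against 4.203, 2.63 and 11.2 CPM in the others. General epithelial-like cells held 17 cells in replicate 2. Their 5 basal markers summed to 4917, 1421 and 4384 CPM, against 137, 43.4 and 20.6 CPM in the others, and whether these transcripts move with the members was not tested.

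Inside the Alk-high clusters, an Alk UMI in a cell did not go with more of any member at the threshold. Cells with an Alk UMI were paired with cells without one, of the same animal and cluster and within 10% in total UMIs. Each partner was used once, giving 139, 203 and 154 pairs, and unpaired cells were left out. In clusters 21 and 26 of replicate 2 more cells had an Alk UMI than had none, so part of them could not be paired. Of all genes 0.343% were called, and of the members 0 with edgeR, while 2 had an unadjusted p under 0.05. DESeq2 and the other alternatives called 0 members as well. SPRED1 had 22.6, 20.04 and 22.3 CPM in cells with an Alk UMI, against 17.3, 10.7 and 16.1 CPM in cells without one. It was higher in 3 of 3 animals without overlap, as 4.46% of all genes were apart (0.52 ± 0.16, unadjusted p = 0.0062, adjusted p = 0.24). ETV4 had 18.7, 13.5 and 22.3 CPM in cells with an Alk UMI, against 25.1, 13.96 and 27.5 CPM in cells without one, lower in 3 of 3 animals with overlapping ranges (-0.33 ± 0.14, unadjusted p = 0.037, adjusted p = 0.48). ETV5 (0.57), EPHA2 (0.06), FOSL1 (-0.17) and IER3 (-0.03) had adjusted p-values of 0.67 to 0.95. An Alk UMI was found in 142, 136 and 132 of 728, 424 and 583 cells of cluster 3 by animal, and in 138 of 198 cells of cluster 21 and 66 of 115 cells of cluster 26 in replicate 2. At this depth a cell without an Alk UMI is not shown to lack the transcript.

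**Figure D5:**
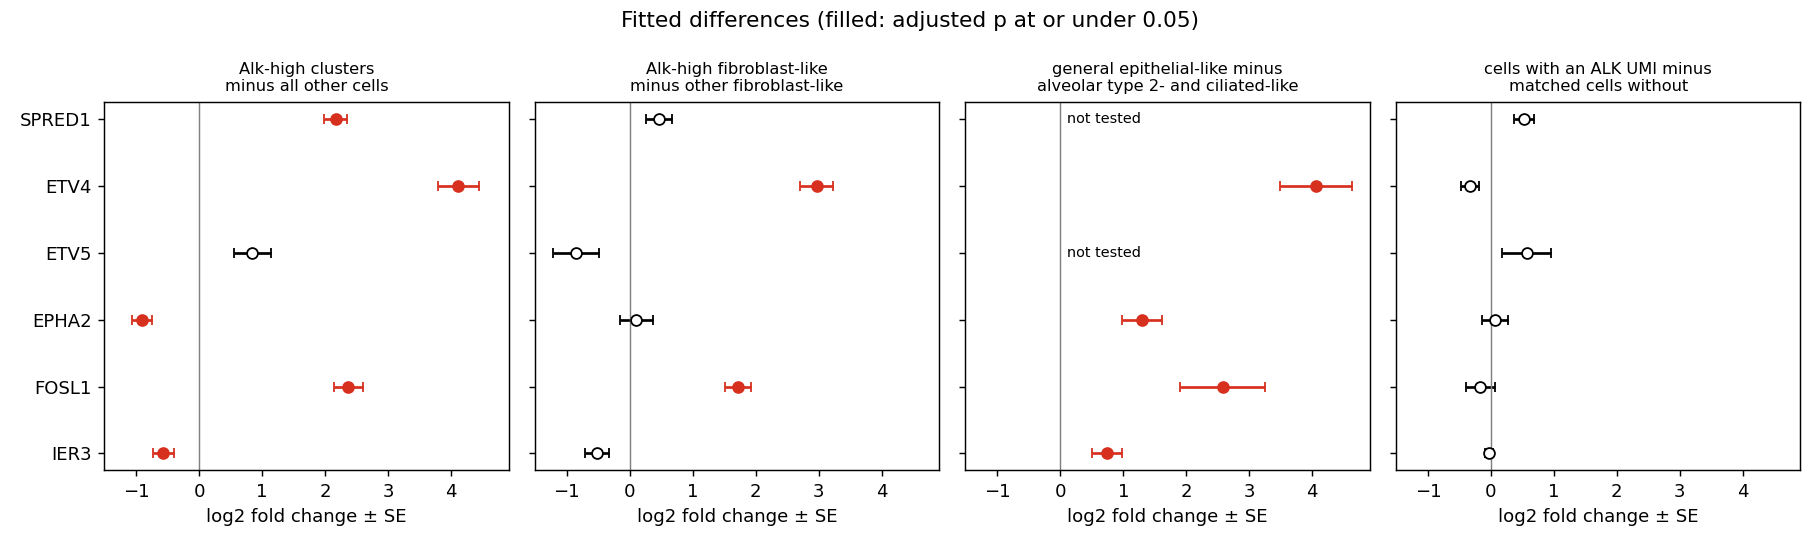
Fitted log2 fold changes with standard errors (horizontal axis) of the 6 genes in 4 comparisons, each with the Alk-related cells over the cells they were set against. Filled red points have an adjusted p at or under 0.05. ETV4 is at 4.11, 2.97 and 4.06 in the first 3 comparisons and at -0.33, not called, between cells with and without an Alk UMI, and SPRED1 and ETV5 were not tested in the epithelial comparison. There ETV4 and FOSL1 passed the filter on low counts only through general epithelial-like cells, so the side of their tests was fixed in advance.

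Fibroblast or mural-like cells as a whole carried more SPRED1, ETV4, ETV5 and FOSL1 than all other cells, and less EPHA2 and IER3. Of all genes 48.8% were called, and all 6 members. ETV4 had 17.6, 15.0 and 17.3 CPM in fibroblast or mural-like cells, against 0.927, 1.81 and 1.21 CPM in the rest (3.38 ± 0.25, edgeR, adjusted p = 0.00079). EPHA2 had 4.90, 10.2 and 5.36 CPM in fibroblast or mural-like cells, against 11.9, 22.6 and 11.6 CPM in the rest (-1.49 ± 0.12, adjusted p = 0.00098), and it was lower in each animal. The groups did not overlap for 5 members, against 50.9% of all genes. These 2 calls held in the alternatives run. SPRED1 had 17.3, 10.8 and 16.2 CPM in fibroblast or mural-like cells, against 2.24, 6.11 and 1.89 CPM in the rest (1.99 ± 0.47, adjusted p = 0.021). FOSL1 had 17.4, 15.9 and 12.4 CPM in fibroblast or mural-like cells, against 2.30, 8.47 and 3.17 CPM in the rest (1.60 ± 0.38, adjusted p = 0.021). ETV5 had 3.37, 3.36 and 2.30 CPM in fibroblast or mural-like cells, against 0.847, 1.43 and 0.846 CPM in the rest (1.25 ± 0.26, adjusted p = 0.014). In the rest of the cells replicate 2 was the highest for each of these genes. Without replicate 1 or without replicate 3 these 3 calls were lost, with adjusted p of 0.11 and 0.097 for SPRED1, 0.052 and 0.083 for FOSL1 and 0.078 and 0.053 for ETV5. IER3 was lower by 0.71 ± 0.16 on the log2 scale (adjusted p = 0.017), with overlapping ranges, and the call was lost without replicate 3 (adjusted p = 0.094), without the block (0.20) and with library totals (0.085).

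Epithelial-like cells had more ETV4 and EPHA2 than all other cells and less IER3. Of all genes 38.9% were called, and 3 of the 6 members. EPHA2 had 34.5, 39.8 and 20.8 CPM in epithelial-like cells, against 9.21, 20.5 and 10.1 CPM in the rest (1.05 ± 0.22, edgeR, adjusted p = 0.0034). ETV4 had 9.01, 10.4 and 14.5 CPM in epithelial-like cells, against 5.45, 3.66 and 3.38 CPM in the rest (1.23 ± 0.31, adjusted p = 0.0090). IER3 had 878, 614 and 987 CPM in epithelial-like cells, against 1438, 1163 and 1805 CPM in the rest (-1.09 ± 0.12, adjusted p = 4.4e-05). None of these 3 overlapped between the groups, nor did ETV5, nor 41.7% of all genes. ETV4 lost its call without replicate 3 (0.90, adjusted p = 0.11), and all 3 lost theirs when KRT14-positive cluster 21 was counted as epithelial (adjusted p of 0.19 for ETV4, 0.56 for EPHA2 and 0.49 for IER3). ETV5 differed by 1.09 (adjusted p = 0.12), SPRED1 by -0.19 (0.66) and FOSL1 by 0.00 (0.999), the last 2 changing sign with the settings.

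In monocyte or macrophage-like cells EPHA2 and IER3 were raised and ETV4 was nearly absent. Of all genes 53.2% were called in monocyte or macrophage-like cells, and 4 of the 6 members. EPHA2 had 21.5, 39.1 and 24.4 CPM in monocyte or macrophage-like cells, against 6.87, 12.8 and 6.87 CPM in the rest (1.80 ± 0.10, edgeR, adjusted p = 0.00015). IER3 had 2628, 2095 and 2527 CPM in monocyte or macrophage-like cells, against 1099.7, 748 and 1565 CPM in the rest (1.25 ± 0.20, adjusted p = 0.0037). ETV4 had 0.346, 0.986 and 0.476 CPM in monocyte or macrophage-like cells, against 6.94, 4.95 and 4.77 CPM in the rest (-2.96 ± 0.37, adjusted p = 0.0015). These 3 did not overlap between the groups, as 45.5% of all genes did not, and stayed called in the alternatives run. FOSL1 was lower by a small margin (-0.80 ± 0.24, adjusted p = 0.032), a call lost without replicate 1 (0.12) and without replicate 2 (0.084), without the block (0.078), with a mitochondrial limit of 10% (0.14) and with the pathway genes kept in the clustering (0.063). SPRED1 (-0.34, adjusted p = 0.12) missed the threshold and passed it with library totals (0.048), Leiden resolution 2 (0.040), a minimum of 2000 UMIs (0.041) and a mitochondrial limit of 10% (0.014). ETV5 differed by 0.39 (adjusted p = 0.21). The 12 dissociation genes summed to 5526, 6491 and 4389.9 CPM in monocyte or macrophage-like cells, against 3915, 4115 and 3602 CPM in the rest, and 11 of them were higher in every animal; their part in the IER3 result was not tested.

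Neutrophil-like cells shared the high EPHA2 and IER3 and added FOSL1. Of all genes 30% were called, and 5 of the 6 members. EPHA2 had 39.5, 88.3 and 16.0 CPM in neutrophil-like cells, against 9.23, 19.8 and 10.5 CPM in the rest (2.10 ± 0.30, edgeR, adjusted p = 4.6e-05), with overlapping ranges because replicate 3 was low. IER3 had 3151, 3750 and 3612 CPM in neutrophil-like cells, against 1379.5, 1118 and 1749 CPM in the rest (1.63 ± 0.26, adjusted p = 0.00014). FOSL1 had 11.1, 22.7 and 13.8 CPM in neutrophil-like cells, against 6.38, 9.38 and 4.59 CPM in the rest (1.52 ± 0.29, adjusted p = 0.00079). IER3 and FOSL1 did not overlap between the groups, nor did 48.3% of all genes. ETV4, with 1, 0 and 0 UMIs in neutrophil-like cells, was lower (-3.77 ± 0.96, adjusted p = 0.0067), at a pooled ratio of 0.0626 with a counting interval of 0.00158 to 0.349. SPRED1, with 1, 3 and 0 UMIs, was lower as well (-2.13 ± 0.67, adjusted p = 0.024), a call lost with DESeq2 (0.056), with replicate 1 left out (0.24) and with at least 2000 UMIs per cell (0.074). ETV5 had 2 UMIs and was not called (adjusted p = 0.44). Neutrophil-like cells were shallow, with median UMIs of 1604.5, 1379.5 and 2852.5 per cell by animal. The 12 dissociation genes summed to 10373, 12280.1 and 5933 CPM in neutrophil-like cells, against 4106.5, 4726 and 3745 CPM in the rest, with 8 higher and 2 lower in every animal, and their part in the IER3 and FOSL1 results was not tested.

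In endothelial-like cells IER3 alone was called, among 24.7% of all genes. It had 635, 478 and 670.5 CPM in endothelial-like cells, against 1425, 1161 and 1774 CPM in the rest (-1.71 ± 0.15, edgeR, adjusted p = 8.2e-11). SPRED1 was higher in 3 of 3 animals without overlap (as for 40.6% of all genes), at 24.6, 7.59 and 12.8 CPM in endothelial-like cells, but on 8, 5 and 4 UMIs the difference missed the threshold (0.81, adjusted p = 0.26). FOSL1 (-1.66, adjusted p = 0.099) passed it without replicate 3 (-2.47, adjusted p = 0.041). EPHA2 (-0.05) and ETV4 (-1.84, on 2 UMIs) were not called, and ETV5 had no UMI, where a count of 0 allows up to 2.31 CPM against 1.45 CPM pooled over the rest. At this depth a difference in ETV5 was not detectable.

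Other genes of the pathway were read from lists, given as counts beside the median over all genes tested. In Alk-high cells, 5 of 12 other MAPK targets and feedback genes were higher and 3 lower, with a median log2 fold change of 0.55 against -0.02 over all genes. Of all genes tested, 24.1% were higher and 25.5% lower in Alk-high cells. The higher ones included VGF, a secreted neuropeptide precursor (4.58; 90.9, 82.9 and 84.4 CPM in Alk-high cells, against 2.72, 4.54 and 1.88 CPM in the others). SPRED3, a relative of SPRED1 (3.88), CCND1, which encodes cyclin D1 (2.63), and ETV1, the third member of the ETV4 and ETV5 family (2.36), were higher too. PLAUR, the urokinase receptor (-1.07), the ERK phosphatase gene DUSP5 (-0.84) and IER2 (-0.56) were lower, of which IER2 lost its call with library totals (-0.24, adjusted p = 0.15). Of the 12 cascade genes none was higher (0) and 5 were lower (median -0.39), among them the ERK-activated kinase gene RPS6KA1 (-3.18), the adaptor GRB2 (-1.31) and the RAS activator SOS2 (-0.81). Scaling moved this list: TMM lowers every difference here by 0.32 relative to library totals. With library totals 1 cascade gene was higher (PTPN11, 0.54), 2 were lower and the median was -0.07 against 0.29 over all genes. SOS2 (-0.49, edgeR adjusted p = 0.052), SOS1 and RASA1 then lost their calls. The other targets then had 7 higher and 2 lower, with a median of 0.88. Of all genes, 36.2% were then higher and 16.8% lower.

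Among 19 receptors and ligands tested, 10 were higher in Alk-high cells and 4 lower (median 1.47). These counts and the median include Alk, which chose the clusters and is no result here. The EGFR ligands EREG (5.03; 11.01, 9.16 and 13.1 CPM in Alk-high cells, against 0.256, 0.463 and 0.121 CPM in the others) and AREG (5.02) were the steepest, followed by PDGFA (3.07) and EGFR itself (2.40). FGF7 (-3.03), the receptor KIT (-2.94) and HGF (-2.89) were lower, and so was PDGFB, on 2 UMIs (pooled ratio 0.0901, counting interval 0.0107 to 0.336). Of the 9 EPHA2 partners, 6 were higher and none lower (median 1.73), led by the ephrin ligands EFNA5 (3.73), EFNA4 (3.71) and EFNA3 (2.27) and the receptor EPHB2 (2.01). Ligands of EPHA2 were thus higher in Alk-high cells, and EPHA2 itself was lower over the 4 clusters together. Among these clusters EPHA2 ranged from 6.57 CPM in cluster 3 to 34.5 CPM in cluster 17, and without cluster 3 its difference was 0.41. Of 13 other AP-1 and ETS factors, EHF, an epithelial ETS factor, was higher (3.01) and 9 were lower (median -0.78), among them FLI1 (-3.47), ERG (-2.88), ETS1 (-1.30) and FOSL2 (-1.20); with library totals 7 were lower.

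Among fibroblast-like cells the targets split. Of 11 other MAPK targets tested, 5 were higher in Alk-high fibroblast-like cells and 5 lower, with a median of 0.15 against -0.02 over all genes. Of all genes tested here, 22.2% were higher and 22.0% lower. VGF was higher (2.59; 97.8, 109 and 101 CPM in Alk-high fibroblast-like cells, against 8.78, 31.6 and 9.45 CPM in the others), as were CCND1 (1.37), SPRED3 (0.83) and ETV1 (0.67). The lower ones were CCN1, a matricellular protein gene (-2.02), the early genes EGR1 (-1.74) and IER2 (-1.38), and MYC (-0.81). EGR1 and IER2 also belong to the dissociation list, of which 11 of 12 genes were called lower and HSP90AA1 higher (0.56), with a median of -1.46. Early AP-1 genes of the same list fell with them: FOS (-1.62), JUN (-1.49) and FOSB (-1.44), against the higher FOSL1. In the cascade, GRB2 (0.44) and PTPN11 (0.41) were higher and SOS2 lower (-0.85) of 12 tested, and with library totals MAP2K2 was higher too (0.44). Of 13 receptors and ligands, 5 were higher, among them EREG (2.69), AREG (2.34), MET (0.93) and PDGFA (0.79), and 7 were lower, among them HGF (-4.69), FGF10 (-2.43) and PDGFRA (-1.96). This list holds Alk, which chose the clusters and is no result here. FGF7 was at 0, 0.450 and 0 CPM in Alk-high fibroblast-like cells, against 55.5, 44.6 and 39.7 CPM in the others. EFNA5 had 4.12, 5.74 and 5.09 CPM in Alk-high fibroblast-like cells and no UMI in the others, at least 13.1-fold higher against a floor of 3 counts over the group.

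Among general epithelial-like cells, 3 of 9 other MAPK targets tested were higher and none lower (median 0.67 against 0.02): the membrane protein gene EMP1 (1.96), MYC (1.25) and DUSP5 (1.00). Of all genes tested, 10.0% were higher and 13.6% lower. None of 10 cascade genes and none of 12 dissociation genes was called. EREG had 17.9, 40.6 and 29.8 CPM in general epithelial-like cells, against 0, 1.32 and 0 CPM in alveolar type 2-like and ciliated-like cells, and AREG (3.58) and MET (1.11) were higher too, while PDGFA was lower (-2.53). EREG and AREG were thus higher beside ETV4 in the Alk-high cells of both the fibroblast-like and the epithelial-like class. Among alveolar type 2-like and ciliated-like cells EREG had 1 UMI and ETV4 had 3. Between cells with and without an Alk UMI no gene of any list was called, in either direction (0 of 11 other targets and 0 of 12 cascade genes).

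Over the classes set against the rest, the target list did not move as a block. It had 6 higher and 2 lower of 12 in fibroblast or mural-like cells (median 0.86 against -0.03), 2 higher and 6 lower of 11 in epithelial-like cells (-0.55 against -0.10), 5 and 5 of 12 in monocyte or macrophage-like cells (0.24 against -0.03), 3 and 5 of 12 in neutrophil-like cells (-1.17 against -0.22) and 3 and 4 of 11 in endothelial-like cells (-0.40 against -0.21). With library totals the counts were 7 and 2, 2 and 3, 3 and 5, 3 and 6, and 4 and 2, in the same order. PLAUR was higher in neutrophil-like cells (2.77) and lower in fibroblast or mural-like (-1.16) and epithelial-like cells (-1.41). Of the 12 cascade genes, none was higher in fibroblast or mural-like cells and 5 were lower (median -0.29 against -0.03 over all genes). In monocyte or macrophage-like cells 7 of 12 were higher (0.48 against -0.03) and in neutrophil-like cells 6 of 12 (0.75 against -0.22), with none lower in either. With library totals these cascade counts were 1 higher and 2 lower in fibroblast or mural-like cells, 4 and 0 in monocyte or macrophage-like cells and 5 and 1 in neutrophil-like cells.

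The genes most like each member over the 28 clusters were ranked by Pearson's r among 8451 features with a symbol and at least 200 UMIs, as a description over clusters that share libraries and depth. For SPRED1 they were TGFB1I1 (0.89), FRMD4A (0.88) and RAI14 (0.88). For ETV4 they were the desmosomal cadherin gene DSC2 (0.86), EREG (0.82) and FJX1 (0.82). For ETV5 they were PLEKHH2 (0.72), SMIM1 (0.71) and PJA1 (0.71), and for EPHA2 SCARB2 (0.82), SDCBP (0.79) and LTBR (0.79). For FOSL1 they were F5 (0.80), the keratin gene KRT17 (0.78) and the glucose transporter gene SLC2A1 (0.76). IER3 was closest to the early genes EGR2 (0.93) and EGR4 (0.90) and to FILIP1L (0.90). Among the members themselves the closest pairs were FOSL1 and IER3 (0.62), SPRED1 and ETV5 (0.55), EPHA2 and IER3 (0.52) and SPRED1 and ETV4 (0.49), while ETV4 and IER3 had r 0.04.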

How the data were processed

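Single-cell RNA was measured in lung tumours of 3 animals with 10x Genomics 3' v3.1 chemistry, per the labels' protocols. A further edit that the labels give for all 3 animals is not reported here. The deposited values are UMI counts, raw and not normalized, 1 matrix per animal, per the file headers, which name Cell Ranger 7.1.0, while the submitters' processing notes name 8.0.0. The genome build is not given in the sources used here. None of the feature identifiers matched the reference table (0), so symbols are those of the files and no sequence is shown.

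Barcodes with at least 1000 UMIs, 500 genes and under 20% mitochondrial counts were kept. A doublet caller set its own threshold so that it marked 0 of 25044 barcodes, so 464 with a score of 0.2 or more were removed instead. Counts were clustered with scanpy 1.11.5 (2000 variable genes, 30 components, 20 neighbours, Leiden resolution 1, leidenalg 0.10.2) without the 6 genes and the list genes. A cluster was named from at least 3 markers detected in 10% of its cells and at least 1 log2 unit above the median cluster, and left unnamed where a different class gave more of the top 10 genes. Counts were summed per animal and class and tested with edgeR 4.0.16 in R 4.3.3 (quasi-likelihood, TMM, filterByExpr, Benjamini-Hochberg at 0.05). Both sums of a comparison come from the same animal, so the animal is the block, and sums under 10 cells are left out. DESeq2 1.42.0, other filters, scalings and settings were run as alternatives. The procedure was tested on simulated data.

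CPM intervals are exact 95% Poisson limits and cover counting error only, as do ratio intervals (exact binomial). A count of 0 allows 3 counts. UMIs totalled 76093932, 86575320 and 91949365 in replicates 1, 2 and 3. In every comparison the 6 members are given, and of each list the called genes that moved the same way in 3 of 3 animals, at most 4 in each direction by size. The members and lists were chosen with earlier results of these data known. The naming rule, the doublet score, the library totals, the Alk-high cells without cluster 3 and the list counts under library totals were chosen after seeing the data.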

Additional observations from a re-analysis of the deposited data

How the results depend on the processing

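Over 9 comparisons the counts of called genes stayed within 1.5 times the main value in 85 of 106 repeats, and values of single genes kept direction and side of the threshold in 574, lost it in 39, gained it in 14, moved in 13 and reversed in 28. Counts of called genes over leaving out 1 replicate ran from 4421 (without replicate 1) to 7520 in fibroblast or mural-like cells (main 7360), 1559 (without replicate 2) to 3352 in endothelial-like cells (main 3619), 4865 (without replicate 1) to 8142 in monocyte or macrophage-like cells (main 7950), 2230 (without replicate 1) to 5083 in neutrophil-like cells (main 4393), 4488 (without replicate 1) to 7139 in Alk-high cells (main 7445), 998 (without replicate 3) to 1932 in general epithelial-like cells (main 1953) and 56 to 310 (without replicate 3) for cells with an Alk UMI (main 39). Other settings that moved a count were cluster 21 joined to the epithelial-like cells (2937 against 5917), Alk-high cells without cluster 3 (3041), Alk-high fibroblast-like cells matched on UMIs (2801 against 5385) or without the replicate block (3393), DESeq2 in general epithelial-like cells (1190), and for cells with an Alk UMI no filter (116), no replicate block (0), library totals (11), resolution 2 (12), 2000 UMIs (5) and a mitochondrial limit of 10% (16). Reversals were as follows. SPRED1 in epithelial-like cells was 0.0702 with library totals and 0.16 with cluster 21 joined (leaving out replicates -0.37 to 0.069), and FOSL1 there, at 0.00, was -0.0304 with DESeq2, -0.0406 with no filter, -0.0555 without the replicate block and -0.27 at the mitochondrial limit of 10% (-0.45 to 0.26). EPHA2 in endothelial-like cells was 0.0681 with DESeq2, 0.0015 without the replicate block and 0.35 with library totals (-0.36 to 0.55). ETV5 in monocyte or macrophage-like cells was -0.28 at the mitochondrial limit of 10%, and EPHA2 in Alk-high cells was 0.41 without cluster 3. Among fibroblast-like cells SPRED1 was -0.0329 with matched cells and EPHA2 ran from -0.10 to 0.22. Between cells with and without an Alk UMI, EPHA2 was -0.10 with no matching, -0.13 at 2000 UMIs and -0.0817 with the list genes in the clustering (-0.0391 to 0.26), FOSL1 0.18 with no matching (-0.40 to 0.16), and IER3 0.0309 with library totals, 0.18 with no matching, 0.0717 at resolution 2 and 0.0425 with the list genes in the clustering (-0.0764 to 0.0145). The IER3 correlation with Alk was -0.0307 by Spearman. Causes were not tested. TMM lowered all log2 differences relative to library totals by 0.25 in epithelial-like, 0.31 in fibroblast or mural-like, 0.42 in endothelial-like, 0.32 in Alk-high and 0.13 in Alk-high fibroblast-like cells, and raised them by 0.11 in monocyte or macrophage-like and 0.30 in neutrophil-like cells. Genes called higher and lower were 2831 and 3086 in epithelial-like cells (library totals 3668 and 1920), 3586 and 3774 in fibroblast or mural-like cells (5252 and 2488), 1472 and 2147 in endothelial-like cells (2466 and 1189), 2122 and 2271 in neutrophil-like cells (1461 and 3845), 3615 and 3830 in Alk-high cells (5422 and 2513), 2704 and 2681 in Alk-high fibroblast-like cells (3414 and 2229) and 17 and 22 for cells with an Alk UMI (8 and 3). The mean over cells put ETV4 in fibroblast or mural-like cells at 11.5 CPM and IER3 in neutrophil-like cells at 4029.6 CPM, and at least 2000 UMIs per cell put IER3 there at 2747 CPM. Depth limits ETV5 everywhere and SPRED1, ETV4 and FOSL1 in endothelial-like, neutrophil-like and lymphoid classes, where sums hold a few UMIs.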

Other observations

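Some levels in single clusters stood apart from their class and were singled out after their values were seen. EPHA2 in dendritic-like cluster 16, led by IRF8 and PLD4, was at 32.8, 30.2 and 26.4 CPM in replicates 1, 2 and 3, on 19, 21 and 8 UMIs, while its class had 8.30 ± 0.41 CPM (SD, n = 3). All 3 animals gave a like value in this cluster, which had no SPRED1 or ETV5 UMI. FOSL1 in neutrophil-like cluster 25, led by LTF, was at 13.7, 66.1 and 32.9 CPM on 5, 7 and 7 UMIs, with EPHA2 in the same cluster at 2.92 CPM on 2 UMIs. Neutrophil-like cluster 7 held the reverse pair, with EPHA2 at 60.0 CPM and FOSL1 at 12.5 CPM. Macrophage-like cluster 11, led by C1QB and CX3CR1, combined SPRED1 at 8.41, 10.6 and 15.9 CPM, ETV5 at 5.28 CPM and EPHA2 at 38.6 CPM. Its IER3 level, 1411 CPM, was below that of the other 3 monocyte or macrophage-like clusters (2041 to 3672 CPM). The 2 clusters with the highest Alk levels, both from replicate 2, held different members: KRT14-positive cluster 21 had FOSL1 at 51.6 CPM and SPRED1 at 13.7 CPM, and bone matrix-like cluster 26 had FOSL1 at 5.27 CPM and SPRED1 at 36.9 CPM, while IER3 was at 2157 and 324 CPM. With 1 animal behind each, these levels have no replicate check.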
